A study of Sus scrofa with 11 samples.

Results

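Porcine coronary arteries kept in a bioreactor without a stent, under the flow that the labels mark with 2 plus signs (high-flow), gave 2 libraries, which were set against 2 libraries of native coronary arteries. They were chosen by their titles, Flow ++ and Native control, and make up 4 of the 11 libraries of the series. The comparison sets culture under flow as a whole against the native state. For the last comparisons, 2 low-flow libraries (bioreactor, no stent, 1 plus sign) and 3 stented high-flow libraries (bioreactor, stent, 2 plus signs) were used, and the remaining 2 libraries, from stented vessels in static culture, entered only the shared estimate of the spread. All vessels were of Sus scrofa, and the labels give no breed, age, flow rate or pressure. No days in culture are given for high-flow, low-flow or native vessels, while the library name of 1 stented high-flow vessel carries 7d and those of the 2 static vessels carry 3d, with no meaning stated.

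Smooth muscle cells make up most of the wall of a coronary artery and hold its tone with a set of contractile proteins that includes smooth muscle myosin and actin. In injured or cultured arteries these cells can lose contractile transcripts and make more extracellular matrix and matrix-degrading enzymes, the cell behaviour behind intimal hyperplasia. Flow acts first on the endothelium, where shear stress is known to induce the transcription factors KLF2 and KLF4 and the nitric oxide synthase NOS3.

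The 4 libraries held 17507068 to 20242681 counts assigned to genes, so that 3 counts corresponded to 0.153 to 0.195 CPM, the count scaled to library size. The Pearson correlation of log2 CPM was 0.956 between the 2 high-flow libraries and 0.971 between the 2 native libraries, and 105 and 18 genes with a mean log2 CPM of at least 3 differed by more than 4-fold within those pairs. Mitochondrially encoded genes took 4.85% and 8.65% of counts in high-flow and 10.3% and 10.7% in native libraries. Native replicate 1 stood apart in heart muscle transcripts, which are given below with and without it. The 2 low-flow libraries held almost no counts of the Y-linked EIF1AY and KDM5D, which both groups compared here did express. Smooth muscle myosin and the endothelial adhesion molecule PECAM1 were detected in all 4 libraries, PECAM1 at 279.1 and 195 CPM in high-flow, against 388 and 489 CPM in native libraries. The labels do not say whether libraries came from separate animals, so p-values measure the spread between these libraries. Library names carry a number of no stated meaning, 23 and 24 in high-flow and 2 and 25 in native vessels. Native replicate 2 shares number 25 with stented high-flow replicate 1, and the fit treated them as independent. In whole vessels, fewer cells of a type and less RNA per cell cannot be told apart.

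Of 15348 genes tested, 2272 (14.8%) differed between high-flow and native vessels at an adjusted p under 0.05, 912 of them higher (5.94%) and 1360 lower (8.86%) in high-flow vessels. The median log2 fold change over all genes tested was 0.02, and the quartiles were -0.67 and 0.59. Among the genes called, 105 were more than 16-fold higher and 350 more than 16-fold lower. Both high-flow libraries lay above both native ones in 31.3% of genes tested and below both in 31.5%. The number called was 772 without high-flow replicate 1, 1318 without high-flow replicate 2, 752 without native replicate 1 and 808 without native replicate 2. In all 4 of these fits 472 genes were called in the same direction as with every library, 151 of them higher and the rest lower. Genes given below as called against native vessels belong to these 472 unless the text says which library their call needed. Counts called on the gene lists below stand beside these shares over all genes, 5.94% higher and 8.86% lower. They also stand beside the fall in calls over all genes whenever 1 library was left out. Errors after a log2 fold change are standard errors.

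**Figure D1:**
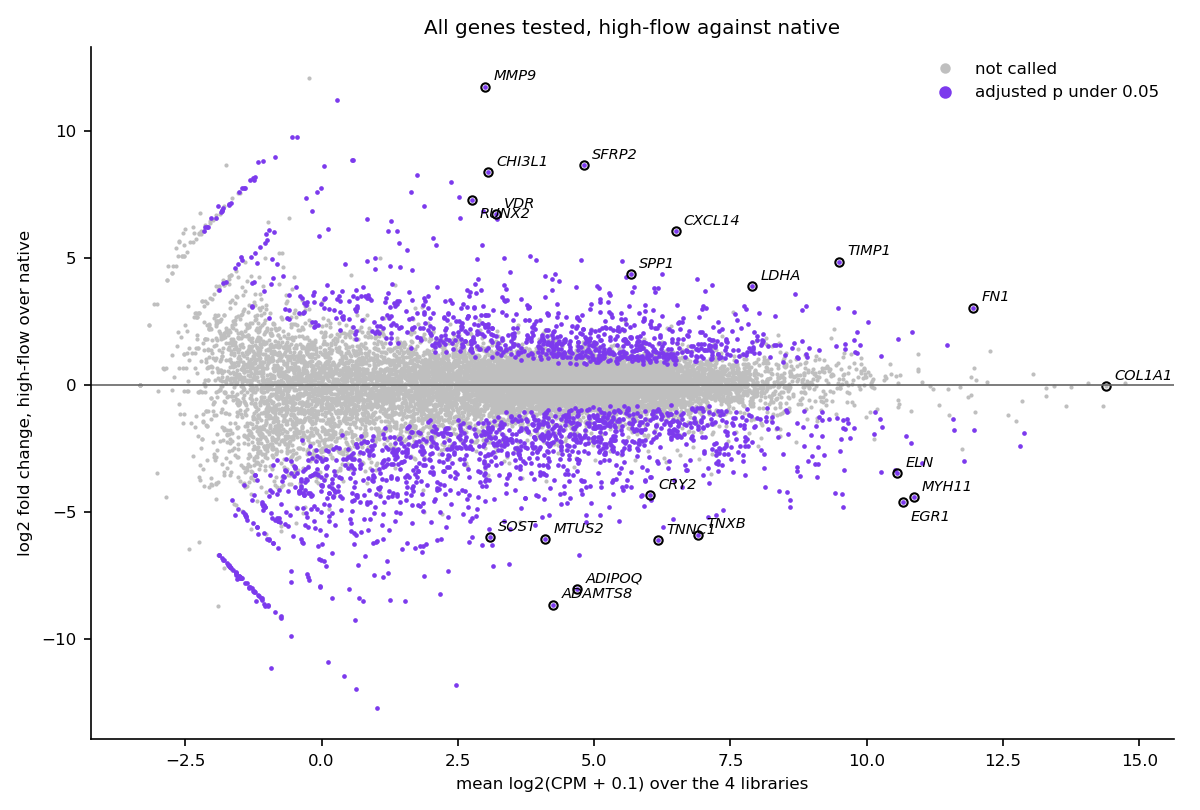
Log2 fold change of high-flow over native vessels (vertical axis) against the mean log2(CPM + 0.1) of the 4 libraries (horizontal axis) for the 15348 genes tested. The 2272 genes with an adjusted p under 0.05 are purple and lie on both sides of 0, while COL1A1, among the most abundant transcripts, lies at -0.05.

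SFRP2, CHI3L1 and VDR were among the 12 largest rises of called genes with a symbol, no overlap between the groups and a mean log2 CPM of at least 3 over the 4 libraries. SFRP2, a secreted Wnt modulator, had 1088 and 226 CPM in high-flow, against 0.977 and 2.24 CPM in native libraries (log2 fold change 8.66 ± 1.01, adjusted p = 0.000797). CHI3L1, a secreted chitinase-like glycoprotein, had 72.8 and 238 CPM in high-flow, against 0.716 and 0.23 CPM in native libraries (log2 fold change 8.37 ± 1.30, adjusted p = 0.00262). VDR, the vitamin D receptor, had 99.3 and 80.6 CPM in high-flow, against 0.716 and 0.978 CPM in native libraries (log2 fold change 6.71 ± 0.44, adjusted p = 0.000161). In none of these did a high-flow library come near a native one, although SFRP2 was several times higher in high-flow replicate 1 and CHI3L1 in high-flow replicate 2. The chemokine CXCL14 had 821 and 636 CPM in high-flow, against 10.9 and 11.3 CPM in native libraries (log2 fold change 6.03 ± 0.67, adjusted p = 0.000699). GPNMB, a membrane glycoprotein of lipid-laden macrophages and other cells, had 243 and 77.1 CPM in high-flow, against 4.88 and 5.64 CPM in native libraries (log2 fold change 4.93 ± 0.57, adjusted p = 0.000772). The others among the 12 included CEMIP, C1QTNF3, HAPLN4, SMPDL3B, TIMP1 and LIF, with log2 fold changes between 4.43 and 6.54, and of the 12 only LIF needed 1 library, missing the threshold without native replicate 2 (adjusted p = 0.0502).

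ADAMTS8, TNXB and SOST were among the 12 largest falls by the same rule. ADAMTS8, a secreted metalloprotease, had 0.661 and 1.18 CPM in high-flow, against 388 and 347 CPM in native libraries (log2 fold change -8.63 ± 0.86, adjusted p = 0.000519). TNXB, a tenascin of connective tissue, had 11.8 and 19.9 CPM in high-flow, against 1099 and 779 CPM in native libraries (log2 fold change -5.89 ± 0.62, adjusted p = 0.000581). SOST, a secreted Wnt inhibitor best known from bone and also made by arterial smooth muscle, had 1.17 and 0.873 CPM in high-flow, against 60.3 and 69.3 CPM in native libraries (log2 fold change -5.98 ± 0.79, adjusted p = 0.00126). Both high-flow libraries were far below both native ones in all 3. The striated-muscle genes TNNC1, which encodes troponin C, and MYL4, a myosin light chain, differed in how native libraries agreed. TNNC1 had 3.61 and 15.9 CPM in high-flow, against 704 and 638 CPM in native libraries (log2 fold change -6.11 ± 1.08, adjusted p = 0.00475). MYL4 had 2.19 and 3.64 CPM in high-flow, against 473 and 120.5 CPM in native libraries (log2 fold change -6.67 ± 0.74, adjusted p = 0.000699). Native replicates were alike in TNNC1 and several-fold apart in MYL4. The other falls among the 12 were MTUS2, CILP and IGSF10 (log2 fold changes -6.07, -5.67 and -5.65), the adipocyte genes ADIPOQ, THRSP and DGAT2 and the skeletal actin ACTA1. The calls of these last 4 did not hold in every fit without 1 library. ACTA1 had 1.42 and 2.16 CPM in high-flow, against 276 and 6.15 CPM in native libraries (log2 fold change -6.29 ± 1.58, adjusted p = 0.023), so that native replicate 1 alone was high. ACTA1 was not called without high-flow replicate 1 (adjusted p = 0.157), high-flow replicate 2 (0.112) or native replicate 1 (0.409), and its reads may be shared with near-identical actins. DGAT2 was not called without high-flow replicate 1 (adjusted p = 0.202), high-flow replicate 2 (0.118), native replicate 1 (0.106) or native replicate 2 (0.0833). THRSP was not called without high-flow replicate 1 (adjusted p = 0.172), high-flow replicate 2 (0.0605), native replicate 1 (0.103) or native replicate 2 (0.0827).

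Contractile genes of smooth muscle gave no call in the higher direction. Of 20 tested members of the contractile list 12 were called lower and 0 higher, with a median log2 fold change of -2.39. MYH11, the smooth muscle myosin heavy chain, had 82.0 and 1030.3 CPM in high-flow, against 11137 and 12614 CPM in native libraries (log2 fold change -4.42 ± 1.23, adjusted p = 0.0343). CNN1, the actin-binding calponin, had 48.1 and 343 CPM in high-flow, against 3068 and 4319 CPM in native libraries (log2 fold change -4.24 ± 0.99, adjusted p = 0.0173). ACTG2, an actin of smooth muscle whose reads may be shared with other actins, had 56.6 and 94.0 CPM in high-flow, against 1679 and 2469 CPM in native libraries (log2 fold change -4.78 ± 0.88, adjusted p = 0.00589). In all 3 both high-flow libraries lay far below both native ones, and high-flow replicate 2 retained more MYH11 and CNN1 than replicate 1. ACTA2, the main actin of arterial smooth muscle, had 865 and 2203 CPM in high-flow, against 7661 and 9667 CPM in native libraries, without overlap, but did not pass the test (log2 fold change -2.50 ± 0.89, adjusted p = 0.0828). The authors' deposited list for high flow over native does hold ACTA2, at a log2 fold change of -2.49. LMOD1, which nucleates actin filaments, had 35.3 and 143 CPM in high-flow, against 1398 and 1808 CPM in native libraries (log2 fold change -4.17 ± 0.85, adjusted p = 0.00943).

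Those calls did not hold in every fit without 1 library, as was so for most calls over all genes tested. MYH11 missed the threshold without high-flow replicate 1 (adjusted p = 0.14), native replicate 1 (0.093) or native replicate 2 (0.103). Without high-flow replicate 2 the MYH11 log2 fold change was -7.13. CNN1 missed it without high-flow replicate 1 (adjusted p = 0.0894), native replicate 1 (0.0509) or native replicate 2 (0.0711), ACTG2 without high-flow replicate 1 (adjusted p = 0.0678) and LMOD1 without high-flow replicate 1 (adjusted p = 0.0716). Leaving out high-flow replicate 1, high-flow replicate 2, native replicate 1 or native replicate 2 left 2, 12, 5 and 5 contractile members called lower. The 2 that passed in every one of these fits, named after their values were seen, were CSRP1 and SRF. CSRP1, a LIM protein of smooth muscle, had 199 and 614 CPM in high-flow, against 3853 and 4753 CPM in native libraries (log2 fold change -3.40 ± 0.50, adjusted p = 0.00212). SRF, the transcription factor that drives contractile genes and immediate early genes, had 57.1 and 60.5 CPM in high-flow, against 166 and 174 CPM in native libraries (log2 fold change -1.53 ± 0.24, adjusted p = 0.00258). FLNA, an actin cross-linker among the 10 most abundant native transcripts, had 2542 and 3798 CPM in high-flow, against 16973 and 16200.0 CPM in native libraries (log2 fold change -2.39 ± 0.38, adjusted p = 0.00274). MYOCD, the co-activator of SRF in smooth muscle, had 10.8 and 22.9 CPM in high-flow, against 43.4 and 45.9 CPM in native libraries and was not called (log2 fold change -1.41 ± 0.69, adjusted p = 0.196).

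**Figure D2:**
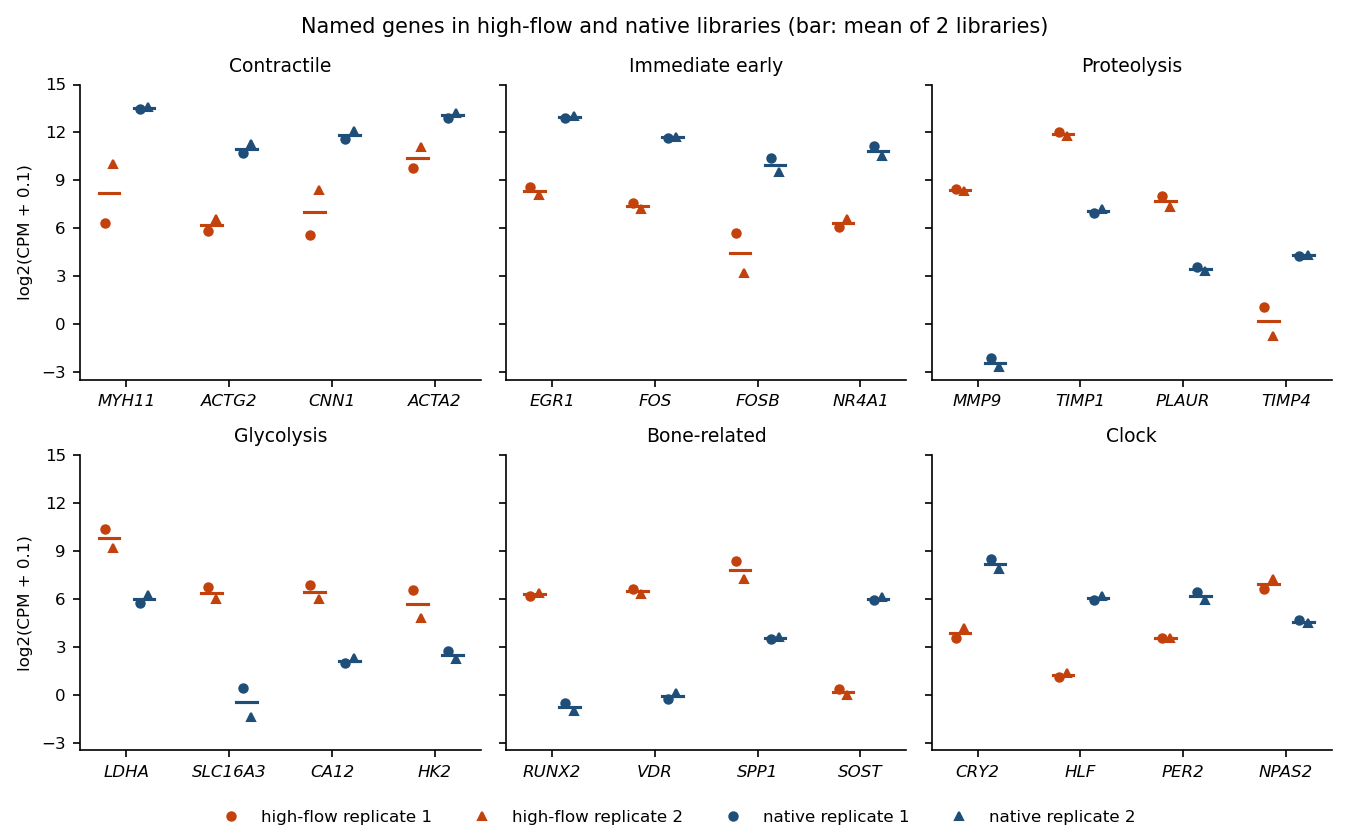
Log2(CPM + 0.1) of 24 genes in each library, high-flow left (orange) and native right (blue), with circles for replicate 1, triangles for replicate 2 and a bar at the mean of 2 libraries. The groups did not overlap in any of the 24 genes, and the 2 high-flow libraries were furthest apart in MYH11, where they had 82.0 and 1030.3 CPM.

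Immediate early genes are transcribed within minutes of a stimulus. Of 17 tested members 12 were called lower and 0 higher, with a median of -3.10, and each of the 4 fits without 1 library called 10 lower, 7 of which were the same genes in all 4. EGR1, a zinc-finger factor, had 387 and 273 CPM in high-flow, against 7611 and 8459 CPM in native libraries (log2 fold change -4.61 ± 0.58, adjusted p = 0.00103). FOSB, a subunit of AP-1, had 52.8 and 9.14 CPM in high-flow, against 1374 and 753 CPM in native libraries (log2 fold change -5.10 ± 0.88, adjusted p = 0.0044). NR4A1, an orphan nuclear receptor, had 68.9 and 95.6 CPM in high-flow, against 2273 and 1475 CPM in native libraries (log2 fold change -4.51 ± 0.51, adjusted p = 0.000758). High-flow libraries lay an order of magnitude or more below native ones in each. NR4A3 and ATF3 fell by 4.81 ± 0.53 and 3.35 ± 0.49 on the log2 scale, with adjusted p of 0.000699 and 0.00215. FOS had 192 and 148 CPM in high-flow, against 3205 and 3394 CPM in native libraries (log2 fold change -4.28 ± 0.78, adjusted p = 0.00575). FOS was not called without high-flow replicate 1 (adjusted p = 0.0526). JUNB was listed at 0 in all 4 libraries.

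The 2 factors that shear stress induces in endothelium were also lower in high-flow than in native vessels. That comparison is of culture with the native state, not of flow levels. KLF4 had 50.6 and 26.7 CPM in high-flow, against 449 and 438 CPM in native libraries (log2 fold change -3.52 ± 0.37, adjusted p = 0.000581). KLF2 had 74.5 and 101 CPM in high-flow, against 338 and 354 CPM in native libraries (log2 fold change -1.97 ± 0.51, adjusted p = 0.0249). KLF2 was not called without high-flow replicate 1 (adjusted p = 0.166), high-flow replicate 2 (0.0819), native replicate 1 (0.092) or native replicate 2 (0.106). NOS3, the endothelial nitric oxide synthase, had 22.6 and 38.5 CPM in high-flow, against 28.8 and 35.8 CPM in native libraries, with overlapping libraries (log2 fold change -0.08 ± 0.64, adjusted p = 0.951). Across the list of flow-responsive genes 2 of 17 were called higher and 6 lower, and without high-flow replicate 1, high-flow replicate 2, native replicate 1 or native replicate 2 the counts were 1 higher and 1 lower, 1 and 2, 0 and 2, and 0 and 1. The higher pair were CYP1B1, an oxidising P450 enzyme, and NQO1, a quinone reductase. NQO1 was not called without high-flow replicate 2 (adjusted p = 0.0884), native replicate 1 (0.12) or native replicate 2 (0.0964). CYP1B1 had 877 and 539.6 CPM in high-flow, against 87.8 and 109.7 CPM in native libraries (log2 fold change 2.84 ± 0.62, adjusted p = 0.0122). CYP1B1 was not called without high-flow replicate 1 (adjusted p = 0.0734), native replicate 1 (0.0998) or native replicate 2 (0.073).

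The clock genes HLF, CRY2 and PER2 fell while NPAS2 rose. HLF, a PAR-domain transcription factor under clock control, had 2.09 and 2.52 CPM in high-flow, against 61.2 and 71.2 CPM in native libraries (log2 fold change -4.84 ± 0.54, adjusted p = 0.000699). CRY2, a repressor of the clock, had 11.9 and 18.1 CPM in high-flow, against 367 and 229 CPM in native libraries (log2 fold change -4.32 ± 0.35, adjusted p = 0.000236). PER2, its partner, had 11.6 and 11.9 CPM in high-flow, against 87.3 and 62.1 CPM in native libraries (log2 fold change -2.67 ± 0.40, adjusted p = 0.00225). All 3 were far below both native libraries in both high-flow libraries. NPAS2, which can replace CLOCK in the activating complex, had 96.8 and 148 CPM in high-flow, against 25.1 and 22.1 CPM in native libraries (log2 fold change 2.38 ± 0.33, adjusted p = 0.00153). Of 16 clock genes tested 7 were called lower and 1 higher, with a median of -1.10, and each fit without 1 of the 4 libraries gave 4 lower and 1 higher. The labels give no time of day for freezing.

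COL1A1 and COL3A1 did not pass the test, while P4HA3 and LOXL4 were higher. COL1A1 had 32870.0 and 12093 CPM in high-flow, against 20529 and 26006 CPM in native libraries (log2 fold change -0.05 ± 0.57, adjusted p = 0.968). COL3A1 had 25724 and 7842 CPM in high-flow, against 27492 and 32364 CPM in native libraries (log2 fold change -0.83 ± 0.70, adjusted p = 0.465). The high-flow libraries were more than 2-fold apart in both, with replicate 1 the higher, and spanned the native range of COL1A1. P4HA3, a subunit of the enzyme that hydroxylates collagen prolines, had 141 and 74.7 CPM in high-flow, against 10.7 and 12.1 CPM in native libraries (log2 fold change 3.24 ± 0.40, adjusted p = 0.00098). LOXL4, a lysyl oxidase that cross-links collagen and elastin, had 49.2 and 20.4 CPM in high-flow, against 3.0 and 3.91 CPM in native libraries (log2 fold change 3.33 ± 0.50, adjusted p = 0.00223). COL11A1, a minor fibrillar collagen, had 207 and 28.8 CPM in high-flow, against 7.62 and 8.69 CPM in native libraries (log2 fold change 3.85 ± 0.97, adjusted p = 0.0233), and without high-flow replicate 1 its log2 fold change was 1.83 (adjusted p = 0.229), while without native replicate 1 or 2 the adjusted p was 0.148 and 0.129.

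Of 23 collagen and collagen-assembly genes 10 were called higher and 1 lower, with a median of 1.36. Without high-flow replicate 1, high-flow replicate 2, native replicate 1 or native replicate 2 the count of higher members was 2, 13, 2 and 2, and the median was 0.48, 1.72, 1.22 and 1.42. The lower one was COL14A1, a collagen that lies on fibril surfaces, at 229 and 69.5 CPM in high-flow, against 1006 and 952 CPM in native libraries (log2 fold change -2.71 ± 0.66, adjusted p = 0.0207). COL14A1 was not called without high-flow replicate 2 (adjusted p = 0.115), native replicate 1 (0.0843) or native replicate 2 (0.0798). FN1, the adhesive glycoprotein fibronectin, was among the 10 most abundant high-flow transcripts at 17818 and 6354 CPM in high-flow, against 1495 and 1449 CPM in native libraries (log2 fold change 3.04 ± 0.68, adjusted p = 0.0143). FN1 was not called without high-flow replicate 1 (adjusted p = 0.102), native replicate 1 (0.101) or native replicate 2 (0.101). SPP1, the phosphoprotein osteopontin, had 324 and 151 CPM in high-flow, against 11.2 and 12.02 CPM in native libraries (log2 fold change 4.35 ± 0.61, adjusted p = 0.00174). In FN1 and SPP1 both high-flow libraries lay above both native ones. ITGA5, the fibronectin receptor subunit, had 1082 and 1431 CPM in high-flow, against 147 and 180.3 CPM in native libraries (log2 fold change 2.94 ± 0.30, adjusted p = 0.00057).

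The elastic-fibre genes ELN and LTBP4 and the basement-membrane gene COL18A1 fell. ELN, the elastin precursor, had 425 and 489.7 CPM in high-flow, against 4730.3 and 5307 CPM in native libraries (log2 fold change -3.46 ± 0.54, adjusted p = 0.00262). LTBP4, which binds latent TGF-beta and is needed for elastic fibres, had 75.6 and 99.3 CPM in high-flow, against 1772 and 1422 CPM in native libraries (log2 fold change -4.19 ± 0.47, adjusted p = 0.000699). COL18A1, a basement-membrane collagen, had 650.0 and 1046 CPM in high-flow, against 3329.8 and 3489.6 CPM in native libraries (log2 fold change -2.01 ± 0.35, adjusted p = 0.00437). Each was several-fold below native in both high-flow libraries. Of 18 members tested 6 were called lower and 2 higher, with a median of -1.07, and 4, 7, 3 and 4 were lower without high-flow replicate 1, high-flow replicate 2, native replicate 1 and native replicate 2. MFAP4 was listed at 0 in all 4 libraries.

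**Figure D3:**
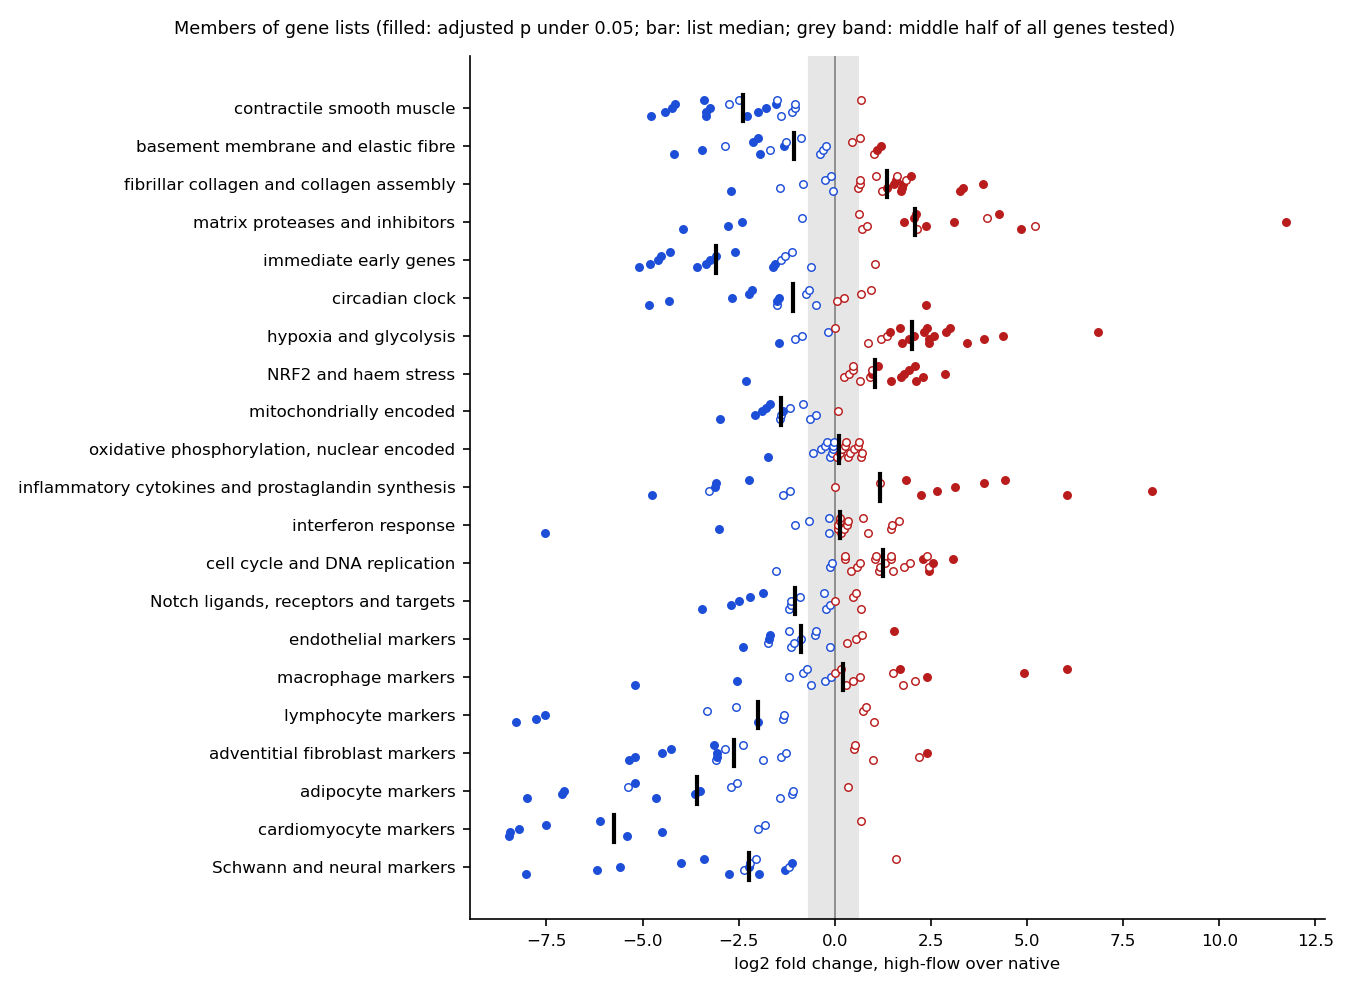
Log2 fold change of high-flow over native vessels (horizontal axis) for the tested members of 21 gene lists (rows), blue below 0 and red above, filled where the adjusted p was under 0.05, with a black bar at the list median and a grey band between the quartiles of all genes tested. The median lies at -3.10 for immediate early genes, at 2.00 for hypoxia and glycolysis genes and at 0.10 for nuclear-encoded respiratory chain genes.

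Among matrix-degrading enzymes and their regulators MMP9, PLAUR and TIMP1 rose and TIMP4 and TIMP3 fell. MMP9, gelatinase B, had 351 and 317 CPM in high-flow, against 0.13 and 0.0575 CPM in native libraries. The native values stand on 2 and 1 counts, so the ratio of high-flow to native was 3640 with a 95% counting interval of 1246.5 to 17670.0 (adjusted p = 0.000352). PLAUR, the urokinase receptor, had 262 and 165 CPM in high-flow, against 12.05 and 10.2 CPM in native libraries (log2 fold change 4.26 ± 0.43, adjusted p = 0.00057). TIMP1, an inhibitor of metalloproteases, had 4222 and 3500.2 CPM in high-flow, against 122 and 145 CPM in native libraries (log2 fold change 4.85 ± 0.45, adjusted p = 0.00035). In these 3 genes all high-flow values exceeded all native values. TIMP4 went the other way, with 2.04 and 0.513 CPM in high-flow, against 19.5 and 19.96 CPM in native libraries (log2 fold change -3.94 ± 0.59, adjusted p = 0.00229). TIMP3, the inhibitor bound to matrix, had 231.8 and 162 CPM in high-flow, against 1348 and 1364 CPM in native libraries (log2 fold change -2.78 ± 0.58, adjusted p = 0.0102). TIMP3 was not called without high-flow replicate 1 (adjusted p = 0.0614) or high-flow replicate 2 (0.0745).

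Of 18 protease and inhibitor genes tested 8 were called higher and 3 lower, with a median of 2.10, and without high-flow replicate 1, high-flow replicate 2, native replicate 1 or native replicate 2 the higher count was 5, 8, 4 and 5 and the lower count 2, 2, 3 and 3. MMP2, gelatinase A, had 3477 and 2296 CPM in high-flow, against 811 and 838 CPM in native libraries (log2 fold change 1.81 ± 0.48, adjusted p = 0.0292). MMP2 was not called without high-flow replicate 1 (adjusted p = 0.156), native replicate 1 (0.165) or native replicate 2 (0.145). PLAU, which encodes urokinase, had 206 and 132 CPM in high-flow, against 36.1 and 29.3 CPM in native libraries (log2 fold change 2.37 ± 0.45, adjusted p = 0.00712). PLAU was not called without high-flow replicate 1 (adjusted p = 0.0533), native replicate 1 (0.0572) or native replicate 2 (0.0742). In the list of thrombosis and fibrinolysis genes, which shares PLAU and PLAUR with it, 5 of 15 were called higher and 0 lower, and 3, 4, 2 and 2 were higher in the same order of left-out libraries. F3, the tissue factor that starts coagulation, had 37.9 and 8.62 CPM in high-flow, against 14.0 and 19.2 CPM in native libraries and was not called (log2 fold change 0.48 ± 0.75, adjusted p = 0.712).

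Of 24 tested genes of glycolysis and of the hypoxia response 16 were called higher and 1 lower, with a median of 2.00, and 12, 14, 10 and 9 were higher without high-flow replicate 1, high-flow replicate 2, native replicate 1 and native replicate 2. LDHA, a subunit of lactate dehydrogenase, had 1339 and 579 CPM in high-flow, against 54.5 and 76.4 CPM in native libraries (log2 fold change 3.87 ± 0.43, adjusted p = 0.000699). SLC16A3, the transporter that exports lactate, had 109 and 64.0 CPM in high-flow, against 1.24 and 0.288 CPM in native libraries (log2 fold change 6.84 ± 0.82, adjusted p = 0.00089). CA12, a carbonic anhydrase at the cell surface, had 115 and 64.9 CPM in high-flow, against 3.84 and 4.83 CPM in native libraries (log2 fold change 4.37 ± 0.34, adjusted p = 0.000236). High-flow replicate 1 was the higher of the pair in all 3, and both high-flow libraries were far above native. HK2, a hexokinase, had 95.7 and 27.6 CPM in high-flow, against 6.71 and 4.6 CPM in native libraries (log2 fold change 3.45 ± 0.50, adjusted p = 0.00206), and its log2 fold change was 2.29 without high-flow replicate 1. VEGFA, the endothelial growth factor induced by low oxygen, had 754 and 523 CPM in high-flow, against 100.2 and 59.3 CPM in native libraries (log2 fold change 3.00 ± 0.46, adjusted p = 0.00252). NDUFA4L2, a hypoxia-induced mitochondrial protein counted here among pericyte markers, had 149 and 113 CPM in high-flow, against 12.1 and 6.5 CPM in native libraries (log2 fold change 3.82 ± 0.57, adjusted p = 0.00229).

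Mitochondrially encoded genes were lower more often than nuclear-encoded respiratory chain genes were called, a difference that was not tested. Reads of mitochondrial genes may be shared with near-identical nuclear copies. Among 13 mitochondrially encoded genes 6 were called lower and 0 higher, with a median of -1.40, against 1 lower and 0 higher of 22 nuclear-encoded ones, with a median of 0.10. CYTB, cytochrome b, had 1196 and 1316 CPM in high-flow, against 10587 and 9466 CPM in native libraries (log2 fold change -2.997 ± 0.41, adjusted p = 0.00161). COX1, a subunit of cytochrome oxidase, had 19973 and 37411 CPM in high-flow, against 30307 and 23949 CPM in native libraries (log2 fold change 0.08 ± 0.45, adjusted p = 0.928). CYTB was lower in both high-flow libraries, whereas the COX1 values overlapped, with the highest and the lowest of the 4 both in high-flow vessels. Without high-flow replicate 1, high-flow replicate 2, native replicate 1 or native replicate 2 the lower count of mitochondrially encoded genes was 1, 5, 4 and 2. ACAA2, a thiolase of fatty acid oxidation, had 14.0 and 9.65 CPM in high-flow, against 55.9 and 46.4 CPM in native libraries (log2 fold change -2.11 ± 0.34, adjusted p = 0.00288).

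The NRF2-driven antioxidant genes HMOX1, PRDX1 and SRXN1 rose. HMOX1, which degrades haem, had 117 and 71.9 CPM in high-flow, against 14.9 and 10.8 CPM in native libraries (log2 fold change 2.88 ± 0.44, adjusted p = 0.00237). PRDX1, a peroxiredoxin, had 349 and 425 CPM in high-flow, against 86.5 and 92.4 CPM in native libraries (log2 fold change 2.11 ± 0.27, adjusted p = 0.00115). SRXN1, which repairs oxidised peroxiredoxins, had 108.3 and 61.4 CPM in high-flow, against 19.5 and 25.1 CPM in native libraries (log2 fold change 1.93 ± 0.30, adjusted p = 0.00267). The groups were well separated in all 3. Of 18 tested 10 were called higher and 1 lower, with a median of 1.05, and 5, 6, 3 and 3 were higher without high-flow replicate 1, high-flow replicate 2, native replicate 1 and native replicate 2. The lower one was CAT, catalase, at 67.7 and 29.1 CPM in high-flow, against 258 and 223 CPM in native libraries (log2 fold change -2.31 ± 0.58, adjusted p = 0.0233). CAT was not called without high-flow replicate 2 (adjusted p = 0.137), native replicate 1 (0.0992) or native replicate 2 (0.0806). In the sterol list 4 of 24 were called higher and 0 lower, with a median of 0.83. Sterol genes were called higher in number 0, 6, 0 and 0 in the same order of left-out libraries.

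Cytokines moved in both directions. IL11, a cytokine of the IL-6 family, had 86.3 and 30.8 CPM in high-flow, against 0.391 and 0 CPM in native libraries (log2 fold change 8.25 ± 1.502, adjusted p = 0.00567). The call of IL11 needed native replicate 2. Without native replicate 1 the IL11 log2 fold change was 13.23, a size set by the model, since the remaining native library held 0 counts. CXCL2, a neutrophil-attracting chemokine, had 9.41 and 14.1 CPM in high-flow, against 278 and 361 CPM in native libraries (log2 fold change -4.76 ± 0.73, adjusted p = 0.00241). IL6 had 36.2 and 18.3 CPM in high-flow, against 23.3 and 31.1 CPM in native libraries, with overlap and no call (log2 fold change 0.00 ± 0.67, adjusted p = 1). PTGS2, the inducible cyclooxygenase, had 619 and 107.8 CPM in high-flow, against 54.8 and 60.2 CPM in native libraries (log2 fold change 2.66 ± 0.63, adjusted p = 0.018), with replicate 1 well above replicate 2 and both above native. Its log2 fold change was 0.91 without high-flow replicate 1, and it was not called without high-flow replicate 1 (adjusted p = 0.191), native replicate 1 (0.122) or native replicate 2 (0.104). Of 17 genes of this list 8 were called higher and 4 lower, with a median of 1.17, and without high-flow replicate 1, high-flow replicate 2, native replicate 1 or native replicate 2 the counts were 4 and 2, 8 and 4, 4 and 3, and 2 and 4.

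Interferon-response genes gave 2 of 19 called lower and 0 higher, with a median of 0.14. Without high-flow replicate 1 there were 3 lower calls, 0 higher and a median of -0.56, and without high-flow replicate 2 there were 2 lower, 2 higher and a median of 0.68. Without native replicate 1 or 2 the count stayed at 2 lower and 0 higher, with a median of 0.07 and 0.26. With every library the 2 lower genes were IRF1, an interferon-induced transcription factor, and CXCL9, a chemokine induced by interferon-gamma. IRF1 had 16.9 and 16.5 CPM in high-flow, against 173 and 98.5 CPM in native libraries (log2 fold change -3.02 ± 0.42, adjusted p = 0.00165). CXCL9 had 0 and 0.0513 CPM in high-flow, against 4.04 and 7.88 CPM in native libraries, that is 0 and 1 counts in high-flow libraries, and the ratio of native to high-flow was 238 with a counting interval of 42.2 to 9442 (adjusted p = 0.00168).

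Regulators of bone and cartilage formation moved in both directions. RUNX2, the master transcription factor of osteoblasts, had 73.6 and 81.7 CPM in high-flow, against 0.586 and 0.403 CPM in native libraries (log2 fold change 7.29 ± 0.61, adjusted p = 0.000236). Together with VDR it was close to the detection limit in native vessels and was present at similar levels in both high-flow libraries. SOX9, the corresponding factor of chondrocytes, had 60.7 and 20.9 CPM in high-flow, against 13.5 and 8.8 CPM in native libraries (log2 fold change 1.87 ± 0.51, adjusted p = 0.0329), and its log2 fold change was 0.92 without high-flow replicate 1. SOX9 was not called without high-flow replicate 1 (adjusted p = 0.297), native replicate 1 (0.106) or native replicate 2 (0.197). ALPL, the phosphatase of mineralising cells, had 0.611 and 0.205 CPM in high-flow, against 3.91 and 3.16 CPM in native libraries and was not called (log2 fold change -3.09 ± 1.00, adjusted p = 0.0599). ACAN, the cartilage proteoglycan aggrecan, had 0.712 and 0.667 CPM in high-flow, against 12.6 and 9.78 CPM in native libraries (log2 fold change -4.01 ± 0.83, adjusted p = 0.0102). ACAN was not called without high-flow replicate 1 (adjusted p = 0.0804), high-flow replicate 2 (0.0666) or native replicate 1 (0.0506). Of 14 members tested 3 were called higher and 3 lower.

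With every library in the fit, the 3 signalling lists held more lower than higher calls, as did all genes tested (8.86% lower and 5.94% higher). That order did not hold for Wnt genes without some libraries. In the TGF-beta and BMP list 5 of 21 were called lower and 1 higher, with a median of -0.07, and of 0.01 to 0.16 without 1 library. SMAD7, an inhibitor induced by TGF-beta, had 35.4 and 22.5 CPM in high-flow, against 123 and 139 CPM in native libraries (log2 fold change -2.18 ± 0.31, adjusted p = 0.00184). ID2, a target of BMP signalling, had 69.5 and 56.7 CPM in high-flow, against 201 and 319.53 CPM in native libraries (log2 fold change -2.05 ± 0.30, adjusted p = 0.00221). Both were lower in both high-flow libraries. Of 16 Notch genes 5 were called lower and 0 higher, with a median of -1.02. NOTCH3, the Notch receptor of smooth muscle and pericytes, had 52.8 and 87.4 CPM in high-flow, against 454 and 456 CPM in native libraries (log2 fold change -2.70 ± 0.36, adjusted p = 0.00133). HEYL, its target, had 8.45 and 19.2 CPM in high-flow, against 178 and 128 CPM in native libraries (log2 fold change -3.46 ± 0.87, adjusted p = 0.0229). HEYL was not called without high-flow replicate 1 (adjusted p = 0.163), high-flow replicate 2 (0.0632), native replicate 1 (0.093) or native replicate 2 (0.0634). Of 24 Wnt genes 8 were called lower and 3 higher, and SFRP4, a secreted relative of SFRP2, had 2.29 and 3.08 CPM in high-flow, against 85.5 and 113 CPM in native libraries (log2 fold change -5.21 ± 0.45, adjusted p = 0.000251), so that 2 related Wnt modulators lay on opposite sides. WNT5A, a non-canonical ligand, had 92.6 and 16.02 CPM in high-flow, against 8.2 and 8.11 CPM in native libraries (log2 fold change 2.73 ± 0.66, adjusted p = 0.0193), and without high-flow replicate 1 its log2 fold change was 0.98. WNT5A was not called without high-flow replicate 1 (adjusted p = 0.223), native replicate 1 (0.122) or native replicate 2 (0.119).

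Counts on the signalling lists depended on the libraries, as did the number called over all genes tested, which fell whichever of the 4 libraries was left out. Without high-flow replicate 1, high-flow replicate 2, native replicate 1 or native replicate 2 the lower count was 2, 3, 5 and 3 for TGF-beta and BMP, 2, 2, 1 and 2 for Notch and 1, 4, 4 and 2 for Wnt genes. The higher count in the same order was 0, 2, 0 and 1 for TGF-beta and BMP, 0 in each fit for Notch and 2, 3, 1 and 2 for Wnt genes. Osteochondrogenic genes gave 2, 3, 2 and 2 higher and 1, 1, 1 and 3 lower in the same order.

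Receptors through which vessels respond to hormones and transmitters differed singly rather than as a list, with 4 of 25 called higher and 3 lower. Higher receptors and channels numbered 1, 6, 1 and 0 in the same order of left-out libraries. HTR2A, a serotonin receptor of smooth muscle, had 43.7 and 36.5 CPM in high-flow, against 4.36 and 3.39 CPM in native libraries (log2 fold change 3.37 ± 0.74, adjusted p = 0.0129). HTR2A was not called without high-flow replicate 1 (adjusted p = 0.0611), native replicate 1 (0.0837) or native replicate 2 (0.101). P2RX1, an ATP-gated channel, had 0.611 and 0.462 CPM in high-flow, against 18.9 and 7.13 CPM in native libraries (log2 fold change -4.58 ± 0.74, adjusted p = 0.00309). AGTR1, the angiotensin II receptor, had 8.4 and 2.67 CPM in high-flow, against 8.73 and 12.8 CPM in native libraries and was not called (log2 fold change -0.96 ± 0.56, adjusted p = 0.281). EDNRA, an endothelin receptor, had 122 and 274 CPM in high-flow, against 38.7 and 40.7 CPM in native libraries, both high-flow libraries above native but more than 2-fold apart, and was not called (log2 fold change 2.32 ± 0.73, adjusted p = 0.0552). The authors' deposited list does hold EDNRA, at a log2 fold change of 2.32. Among hyaluronan genes CEMIP, which promotes the breakdown of hyaluronan, had 76.8 and 95.0 CPM in high-flow, against 0.977 and 0.863 CPM in native libraries (log2 fold change 6.54 ± 0.55, adjusted p = 0.000236). HAS2, which makes it, had 18.5 and 4.82 CPM in high-flow, against 7.55 and 9.15 CPM in native libraries and was not called (log2 fold change 0.48 ± 0.63, adjusted p = 0.654).

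Genes of cell division had a median of 1.25, with 4 of 24 called higher and 0 lower. TOP2A, a topoisomerase of dividing cells, had 70.6 and 29.4 CPM in high-flow, against 11.2 and 25.3 CPM in native libraries and was not called (log2 fold change 1.45 ± 0.73, adjusted p = 0.205). PLK1, a mitotic kinase, had 20.6 and 15.1 CPM in high-flow, against 3.84 and 2.7 CPM in native libraries (log2 fold change 2.45 ± 0.59, adjusted p = 0.0188). PLK1 was not called without high-flow replicate 1 (adjusted p = 0.0967), native replicate 1 (0.0946) or native replicate 2 (0.14). The higher count was 0, 2, 0 and 0 without high-flow replicate 1, high-flow replicate 2, native replicate 1 and native replicate 2. In both genes the high-flow libraries lay above the native ones. Proteasome subunits had a median of 0.65 with 3 of 22 called higher, cytosolic ribosomal proteins a median of 0.40 with 2 of 15, and stress-response genes a median of 0.47 with 3 of 20. Left out in the same order, the libraries gave 0, 2, 0 and 0 higher proteasome genes, 2, 1, 1 and 0 ribosomal ones and 0, 2, 0 and 0 stress-response ones.

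Markers of other cell types moved with the groups. Summed over the cardiomyocyte list the level was 24.4 and 89.3 CPM in high-flow, against 2420 and 755 CPM in native libraries, and 7 of 10 tested members were called lower. Most of the sum in native replicate 2 came from TNNC1, whose values are given above. MYH6, the atrial myosin, had 0.153 and 1.64 CPM in high-flow, against 539 and 1.67 CPM in native libraries (log2 fold change -8.23 ± 2.02, adjusted p = 0.021). TNNT2, cardiac troponin T, had 1.12 and 0 CPM in high-flow, against 403 and 1.32 CPM in native libraries (log2 fold change -8.48 ± 2.26, adjusted p = 0.0366). Native replicate 1 alone was high in both. Without it the log2 fold changes were -0.90 for MYH6 and -1.22 for TNNT2, with adjusted p of 0.723 and 0.731. Neither was called without high-flow replicate 1 (adjusted p of 0.147 and 0.121) or high-flow replicate 2 (0.0719 and 0.157). Without native replicate 1 the list had 2 lower calls and a median of -1.69 in place of -5.75. Only TNNC1 and ACTN2, an actinin of striated muscle named after its values were seen, passed without each of the 4 libraries.

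Of 14 adipocyte transcripts 7 were called lower and 0 higher in high-flow vessels, with a median of -3.57. The lower count was 3 with limma-voom, 3 with the replicate number as a block and 11 with the libraries of one count table. The summed level was 147 and 368 CPM in high-flow, against 3813 and 2424 CPM in native libraries. ADIPOQ, which encodes adiponectin, had 0 and 6.52 CPM in high-flow, against 1075 and 615 CPM in native libraries (log2 fold change -8.02 ± 2.32, adjusted p = 0.0409). ADIPOQ was not called without high-flow replicate 1 (adjusted p = 0.173), high-flow replicate 2 (0.0558), native replicate 1 (0.112) or native replicate 2 (0.0922). Without high-flow replicate 2, the only one of the pair with counts of either gene, the log2 fold change was -17.01 for ADIPOQ and -14.64 for THRSP. The remaining high-flow library held 0 counts of both, so the size of these 2 values is set by the model. LPL, lipoprotein lipase of adipocytes and macrophages, had 21.3 and 23.7 CPM in high-flow, against 1011 and 655 CPM in native libraries (log2 fold change -5.21 ± 0.89, adjusted p = 0.00426). LPL was not called without high-flow replicate 1 (adjusted p = 0.0524). Both native libraries were far above both high-flow ones in each gene. The count of lower adipocyte genes was 0, 2, 1 and 1 without high-flow replicate 1, high-flow replicate 2, native replicate 1 and native replicate 2.

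Schwann and neural markers gave 10 of 15 called lower and 0 higher, with a median of -2.23 and summed levels of 284 and 288 CPM in high-flow, against 1509 and 1496 CPM in native libraries. PRX, periaxin of myelinating cells, had 7.28 and 8.47 CPM in high-flow, against 91.8 and 73.9 CPM in native libraries (log2 fold change -3.39 ± 0.31, adjusted p = 0.00035). MBP, myelin basic protein, had 9.92 and 4.93 CPM in high-flow, against 136 and 101 CPM in native libraries (log2 fold change -3.99 ± 0.50, adjusted p = 0.00098). Native libraries were about alike in both, as were high-flow libraries in PRX. Adventitial fibroblast markers gave 7 of 18 lower and 1 higher, with a median of -2.62 and summed levels of 7664 and 5236 CPM in high-flow, against 11902 and 11311 CPM in native libraries. PI16, a marker of adventitial fibroblasts, had 6.36 and 7.39 CPM in high-flow, against 266 and 294 CPM in native libraries (log2 fold change -5.35 ± 0.42, adjusted p = 0.000236). CLEC3B, a plasminogen-binding lectin, had 12.9 and 14.9 CPM in high-flow, against 273 and 357 CPM in native libraries (log2 fold change -4.50 ± 0.71, adjusted p = 0.00269). DCN, a proteoglycan of many fibroblasts, had 3183 and 1657 CPM in high-flow, against 1645 and 1693 CPM in native libraries and was not called (log2 fold change 0.54 ± 0.41, adjusted p = 0.412). Neural markers were lower in number 5, 5, 6 and 7, and adventitial ones 5, 5, 5 and 5, without high-flow replicate 1, high-flow replicate 2, native replicate 1 and native replicate 2.

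Blood and immune cell markers did not move as 1 group. HBB, the beta-globin chain of red cells, had 0 counts in both high-flow libraries and 35.3 and 47.4 CPM in native libraries, at least 544-fold lower in high-flow vessels with 3 counts over the group as the floor. CD3E, CD2 and CD8A, defining markers of T cells, were at 0 in both high-flow libraries and at 0.978 to 2.21 CPM in native libraries, at least 25.5-fold, 17.9-fold and 15.1-fold lower in high-flow vessels by the same floor. Summed over the lymphocyte list the level was 29.2 and 28.7 CPM in high-flow, against 51.8 and 41.5 CPM in native libraries. Of the 11 members tested, 2 lay higher in both high-flow libraries than in both native ones and 8 lower. Over all genes tested the same shares without overlap were 31.3% higher and 31.5% lower. PTPRC and NKG7 were not called. CD3E was not called without high-flow replicate 1 (adjusted p = 0.0941), high-flow replicate 2 (0.0726), native replicate 1 (0.0837) or native replicate 2 (0.0725). CD2 was not called without high-flow replicate 1 (adjusted p = 0.123), high-flow replicate 2 (0.0988), native replicate 1 (0.0707) or native replicate 2 (0.0955). CD8A was not called without high-flow replicate 1 (adjusted p = 0.082), high-flow replicate 2 (0.0641) or native replicate 1 (0.0624). Lymphocyte markers gave 4 of 11 lower and 0 higher, and 0, 1, 0 and 1 lower without high-flow replicate 1, high-flow replicate 2, native replicate 1 and native replicate 2. Macrophage markers gave 4 of 20 higher and 2 lower, with a median of 0.22, and 2, 5, 2 and 2 were higher in the same order of left-out libraries. MSR1, a scavenger receptor, had 20.6 and 11.4 CPM in high-flow, against 2.93 and 3.11 CPM in native libraries (log2 fold change 2.40 ± 0.35, adjusted p = 0.00218). CD68 had 38.2 and 27.8 CPM in high-flow, against 20.5 and 21.4 CPM in native libraries and was not called (log2 fold change 0.65 ± 0.52, adjusted p = 0.435). The growth factor receptor CSF1R had 21.3 and 12.8 CPM in high-flow, against 105 and 94.4 CPM in native libraries (log2 fold change -2.55 ± 0.61, adjusted p = 0.019). CSF1R was not called without high-flow replicate 1 (adjusted p = 0.0777), high-flow replicate 2 (0.13), native replicate 1 (0.0881) or native replicate 2 (0.0776).

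KIT, a receptor tyrosine kinase listed among mast cell markers, had 185 and 186 CPM in high-flow, against 25.7 and 23.01 CPM in native libraries (log2 fold change 2.93 ± 0.46, adjusted p = 0.00274). MS4A2, the mast cell IgE receptor subunit, had 0.356 and 0.154 CPM in high-flow, against 9.18 and 11.04 CPM in native libraries (log2 fold change -5.27 ± 1.07, adjusted p = 0.00946). MS4A2 was not called without high-flow replicate 1 (adjusted p = 0.0614), high-flow replicate 2 (0.0692) or native replicate 2 (0.052). The 2 high-flow libraries agreed closely in KIT, and the 2 genes of the same list moved in opposite directions. Endothelial markers gave 3 of 15 lower and 1 higher, with a median of -0.89 and summed levels of 1452 and 1306 CPM in high-flow, against 1485 and 1709 CPM in native libraries. CDH5, the cadherin of endothelial junctions, had 153 and 89.8 CPM in high-flow, against 136 and 131 CPM in native libraries and was not called (log2 fold change -0.14 ± 0.42, adjusted p = 0.862). The endothelial calls numbered 1, 0, 1 and 0 lower and 0 higher without high-flow replicate 1, high-flow replicate 2, native replicate 1 and native replicate 2. The part of fat, heart muscle, nerve, blood and adventitial cells in the differences described above was not tested.

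The 16 genes named next were picked for the largest differences between the 2 high-flow libraries. Smaller differences in the native pair follow in part from that choice. Higher in replicate 1 were FNDC1, IFIT1, COL12A1, COL11A1, MX1, TGFBI, WNT5A and PTGS2, with differences of 2.52 to 3.11 in log2 CPM. Higher in replicate 2 were ADIRF, MYBPH, ADORA1, MYH11, CYP1A1, A2M, MYBPC2 and ASB2, with differences of 3.55 to 4.48 in log2 CPM. In the native pair the same 16 genes differed by at most 1.12. Of the 16, COL11A1, WNT5A, PTGS2, MYBPH, MYH11 and CYP1A1 were called against native vessels and the other genes were not. CYP1A1, a P450 enzyme, was not called without native replicate 1 (adjusted p = 0.0727) or native replicate 2 (0.0558). COL12A1, a fibril-associated collagen, had 1176 and 159.9 CPM in high-flow, against 207 and 164 CPM in native libraries, so that only high-flow replicate 1 stood out. IFIT1, an interferon-induced protein, had 71.7 and 8.32 CPM in high-flow, against 34.4 and 38.5 CPM in native libraries, the 2 high-flow libraries lying on either side of the native pair. ADIRF, a small protein of fat and smooth muscle, had 8.65 and 195 CPM in high-flow, against 172 and 199.7 CPM in native libraries, so that only high-flow replicate 1 was low.

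Of the genes higher in replicate 2, ADORA1, an adenosine receptor, MYBPH, a myosin-binding protein, and CHI3L1 lie side by side on chromosome 9 (Sscrofa11.1, RefSeq positions matched by symbol). ADORA1 spans 113835279 to 113875899, MYBPH 113872439 to 113884544 and CHI3L1 113885541 to 113895033. ADORA1 and MYBPH overlap, and no source states whether counting used strand, so their counts may share reads. MYBPH had 12.3 and 210.04 CPM in high-flow, against 0.521 and 0.345 CPM in native libraries (log2 fold change 7.99 ± 2.08, adjusted p = 0.0264). MYBPH was not called without high-flow replicate 2 (adjusted p = 0.128), native replicate 1 (0.151) or native replicate 2 (0.161). Without high-flow replicate 2 the MYBPH log2 fold change was 4.87. ADORA1 had 2.49 and 41.1 CPM in high-flow, against 25.7 and 17.3 CPM in native libraries and was not called (log2 fold change 0.02 ± 1.60, adjusted p = 0.995).

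**Figure D4:**
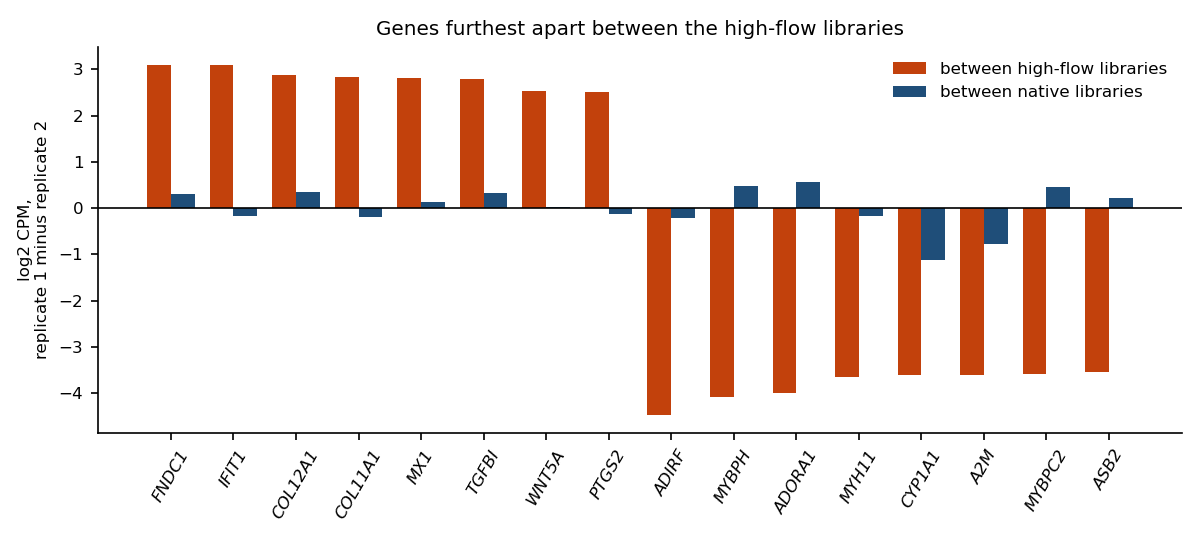
Difference in log2 CPM, replicate 1 minus replicate 2, between the 2 high-flow libraries (orange, left) and the 2 native libraries (blue, right) for the 16 genes furthest apart in the high-flow pair. High-flow differences run from -4.48 in ADIRF to 3.11 in FNDC1, while native differences stay within 1.12.

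Against low-flow vessels, 16 of 15348 genes were called (0.104%), 12 higher (0.0782%) and 4 lower (0.0261%) in high-flow vessels. Of the 16, 11 are listed by identifier alone, and AVPR1A, CGNL1, GATM, EIF1AY and KDM5D have a symbol. AVPR1A, the vasopressin receptor of smooth muscle, had 27.9 and 13.9 CPM in high-flow, against 1.37 and 0.559 CPM in low-flow and 3.06 and 3.22 CPM in native libraries. It was higher in high-flow than in low-flow vessels (log2 fold change 4.44 ± 0.57, adjusted p = 0.0113) and than in native vessels (2.73 ± 0.52, adjusted p = 0.00711), and the call against native vessels was lost without high-flow replicate 1 (adjusted p = 0.0623), native replicate 1 (0.0654) or native replicate 2 (0.057).

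CGNL1, a protein of cell junctions, had 65.4 and 59.3 CPM in high-flow, against 174 and 183 CPM in low-flow libraries (log2 fold change -1.52 ± 0.24, adjusted p = 0.0497). GATM, an enzyme of creatine synthesis, had 12.2 and 6.21 CPM in high-flow, against 41.8 and 48.7 CPM in low-flow libraries (-2.30 ± 0.36, adjusted p = 0.0497). The groups did not overlap in either gene. EIF1AY had 15.9 and 16.9 CPM in high-flow, against 0.0428 and 0 CPM in low-flow libraries, and KDM5D had 13.3 and 28.4 CPM in high-flow and no counts in low-flow libraries. Neither Y-linked gene was called between high-flow and native vessels (log2 fold change -0.43 ± 0.46, adjusted p = 0.585 for EIF1AY and log2 fold change 0.43 ± 0.53, adjusted p = 0.637 for KDM5D). Against low-flow vessels AVPR1A was not called without high-flow replicate 1 (adjusted p = 0.0817), low-flow replicate 1 (0.053) or low-flow replicate 2 (0.218), CGNL1 and GATM lost their calls whichever of the 4 libraries was left out (adjusted p of 0.277 to 0.562 and 0.0541 to 0.42), and KDM5D was not called without low-flow replicate 2 (0.0543). Without low-flow replicate 1 or 2 the count of 16 became 10 and 5.

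Against stented high-flow vessels, edgeR called 0 of 15348 genes, with 467 at an unadjusted p under 0.05, while limma-voom called 0 and DESeq2 6. MYH11 had 82.0 and 1030.3 CPM in high-flow, against 934, 468 and 280.0 CPM in stented high-flow libraries (log2 fold change -0.01 ± 0.97). MMP9 had 351 and 317 CPM in high-flow, against 201, 141 and 243 CPM in stented high-flow libraries (0.77 ± 0.56), and EGR1 387 and 273, against 259, 81.0 and 112 CPM (1.13 ± 0.45). Libraries of the 2 groups overlapped in MYH11, and high-flow libraries were above all stented ones in MMP9 and EGR1 without a call (adjusted p of 1 in each). In low-flow libraries MYH11 was at 1944 and 2568 CPM, MMP9 at 178 and 480.0 CPM and EGR1 at 70.7 and 125 CPM. High-flow vessels differed from these by a log2 fold change of -2.02 ± 1.11 in MYH11, 0.02 ± 0.62 in MMP9 and 1.75 ± 0.52 in EGR1, with adjusted p of 0.672, 0.998 and 0.481. Without stented high-flow replicate 1 the count against stented high-flow vessels was 1.

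**Figure D5:**
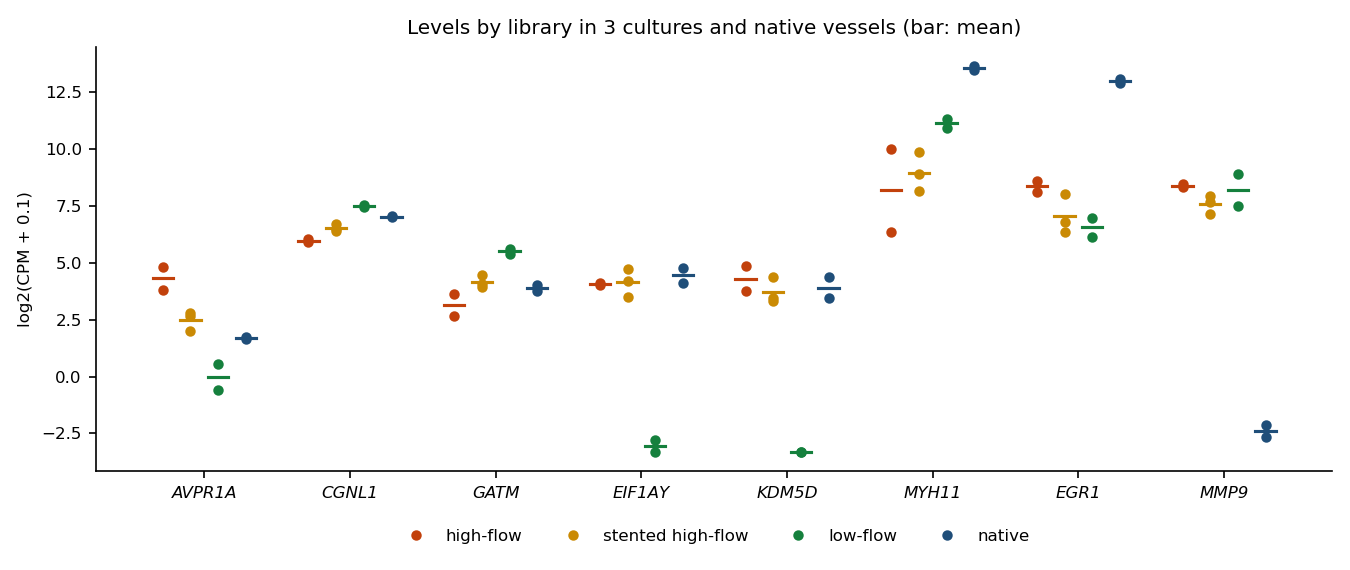
Log2(CPM + 0.1) by library for 8 genes in high-flow, stented high-flow, low-flow and native vessels, from left to right within each gene, with a bar at the group mean. AVPR1A is highest in high-flow and lowest in low-flow vessels, the Y-linked EIF1AY and KDM5D are at or near 0 CPM in low-flow vessels, and MYH11, EGR1 and MMP9 in the 3 cultures lie apart from native vessels.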

How the data were processed

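RNA of whole coronary arteries, flash frozen and extracted with a column kit with DNase, was sequenced from paired-end libraries, per the labels' protocols. The authors deposited raw counts per gene in 2 count tables that share the native libraries, and a list of log2 fold changes of high flow over native. The name of that list gives an adjusted p of 0.05. The submitters' processing notes name Trimmomatic, FastQC, DESeq2 and Sscrofa11.1. No aligner, annotation or strand setting is stated there. The counts of 11 libraries were joined by gene and 5 groups fitted together with edgeR 4.0.16 in R 4.3.3 (filterByExpr, TMM scaling, quasi-likelihood F-test, Benjamini-Hochberg adjustment over 15348 of 25880 genes, threshold 0.05). Standard errors are the absolute log2 fold change over the square root of F. CPM used TMM-scaled library sizes, with a prior count of 2 in log2 CPM differences. Scripts were tested on simulated data. Alternatives included DESeq2 1.42.0 and limma-voom 3.58.1. Depth was 17507068 to 20242681 counts in the 4 main libraries, and intervals and floors (3 counts) cover counting error only.

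The libraries and gene lists were chosen with earlier results of these data known. Named genes were the 12 largest rises and falls that were called, carried a symbol, averaged 3 or more in log2 CPM and did not overlap, key members and up to 4 called members of each list, genes furthest apart between the high-flow libraries, the 10 most abundant genes, and sex-linked genes. CSRP1, SRF, ACTN2, JUNB and MFAP4 were named after their values were seen. A search of promoter motifs was not run, since no sequences were used here. Of 1129 genes in the authors' deposited table, 1098 were tested here. Of those tested, 1015 (92.4%) were called in the same direction. Counting genes called or not, 1 had the opposite direction. Of the 2272 genes called here against native vessels, 1257 were not in the authors' table. A few genes that met the rule are not reported here.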

Additional observations from a re-analysis of the deposited data

Results flagged for a closer look

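The difference between high-flow and low-flow vessels was itself tested and gave 16 genes. How else the handling of these 2 cultures differed is not stated. Among those with a symbol the log2 fold changes of high-flow over low-flow vessels were 4.44 for AVPR1A, -1.52 for CGNL1, -2.30 for GATM, 9.32 for EIF1AY and 11.70 for KDM5D. KDM5D had 0 counts in both low-flow libraries, so the size of its fold change is set by the model. Most of the genes without a symbol were also far lower in low-flow than in both high-flow and native libraries. EIF1AY and KDM5D are Y-linked and had no more than 1 count in each low-flow library, so the lack of Y-linked transcripts and the lower flow cannot be told apart in this comparison.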

How the results depend on the processing

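Against native vessels, the 2272 genes called became 3854 with the libraries of one count table and 771 at a threshold of 0.01; higher genes numbered 1377 with DESeq2, 1707 with one count table and 269 at 0.01, and lower genes 2147 and 502 with the last 2. Leaving out 1 library gave 752 to 1318 genes, 207 to 675 higher and 466 to 643 lower. Against low-flow vessels the 16 genes became 2 with at least 10 counts in every library, 105 with DESeq2, 46 with one count table, 54 without a filter and 10 at 0.01, and 5 to 13 without 1 library. Higher genes there numbered 2, 48, 26 and 32 under the first 4 settings and 5 to 11 without 1 library. Lower genes numbered 0, 57, 20 and 22, then 2 with robust dispersion, 1 at 0.01, 2 without mitochondrially encoded genes and 0 to 2 without 1 library. Against stented high-flow vessels DESeq2 gave 6 genes, 4 higher and 2 lower, and leaving out 1 library gave 0 to 1 gene, 0 to 1 higher and 0 lower. The causes of these shifts were not tested.

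With the replicate number as a block 2160 genes were called against native vessels. The deviations of same-numbered high-flow and native libraries correlated at -0.11, and the crossed pairing, chosen after seeing the data, gave 2139 calls. No called gene named in the text changed sign under the alternatives run. Gene lists did change balance. Sterol genes, 4 higher and 0 lower, gave 1 higher and 2 lower with the block, adipocyte genes 3 lower in place of 7, and vasoactive receptors and channels, 4 higher and 3 lower, 5 higher and 5 lower. With at least 10 counts in every library the median of the cytokine list was -0.04 in place of 1.17 and adipocyte genes gave 3 lower. Without high-flow replicate 1 the interferon median was -0.56 in place of 0.14, the hyaluronan median -0.33 in place of 0.48, and Wnt genes gave 2 higher and 1 lower in place of 3 and 8. Of the named genes' values under alternatives, 3805 kept their side of the threshold, 477 missed it and 92 newly passed it. Direction was compared only where the main or the alternative fit called the gene. With 2 libraries a group, calls rest on a spread shared by 5 groups.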
